A study of Rattus norvegicus with 96 samples.

Results

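Cyp4a1 (ENSRNOG00000009597), Cyp2c22 (ENSRNOG00000021924) and Acsm3 (ENSRNOG00000032246) are 3 of the 32883 genes in the rat count tables, grouped as enzymes that act on lipids and followed rat by rat in 4 tables and on both diets. The group was chosen by measured values, its higher counts on whole egg than on casein in the libraries labelled PFC (prefrontal cortex), so that difference is given as a description without a test. Large RNA was sequenced from tissues of 12 male Sprague Dawley rats, 6 fed a whole egg-based diet and 6 fed a casein-based diet for 2 weeks, with libraries labelled PFC, VAT (visceral adipose tissue), liver and kidney from each rat. The rats were about 9 weeks old when tissue was taken, after an overnight fast. All had been trained to eat their meal within a short window before the feeding period. The sample labels give the animal number but no diet, which was read from the headings of the count columns: egg for animals 2, 4, 5, 8, 10 and 12 and casein for animals 1, 3, 6, 7, 9 and 11.

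Cyp4a1 is a cytochrome P450 that hydroxylates the end carbon of medium- and long-chain fatty acids, and in rodent liver and kidney it is a classical target of the fatty acid receptor PPAR alpha. Cyp2c22 belongs to the Cyp2c family, the P450s that metabolise drugs, retinoids and polyunsaturated fatty acids, and it is known chiefly from liver. Acsm3 is a mitochondrial medium-chain acyl-CoA synthetase, which joins a fatty acid to coenzyme A and so readies it for oxidation. All 3 have close relatives in the rat genome (the Cyp4a, Cyp2c and Acsm families), and reads shared with them could be split or lost in counting, so each level is uncertain to that extent.

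The labels of the tables did not match the marker genes in them, so each library is called by its label only. Over the 12 libraries of a table, the urea cycle enzyme Cps1, which is abundant in hepatocytes, had medians of 1828 CPM (counts scaled so that libraries of unequal depth compare) under the PFC label and 14.8 CPM under the liver label. Ptgds, which makes prostaglandin D in brain, had medians of 1291 CPM under the kidney label and 2.51 CPM under the PFC label. The renal water channel Aqp1 reached its top median, 1139 CPM, under the VAT label. Markers that define fat, such as Adipoq, could not be looked up, since only 72 gene IDs carry a symbol here. Total counts per library ranged between 941980 and 7105361. The liver-labelled libraries of animals 3, 4 and 5 held 32 genes restricted to the PFC-labelled table at 8.33, 9.39 and 22.2% of the level in that table (median of the 12 rats 0.785%). A gene was called restricted when its median was at least 50 CPM in the first table and at most 1 CPM in the second, and the 3 enzymes were left out of the set. In the PFC-labelled table, the libraries of animals 12, 10 and 2, all on egg, were the least like the median library, with correlations across genes of 0.851, 0.941 and 0.943.

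The stretches just upstream of the genes are shown because fatty acid receptors of the PPAR family bind pairs of the half-site AGGTCA. The RefSeq promoter table of assembly GRCr8 held 2 of the 3 genes, Acsm3 and Cyp2c22. The 250 bases before each start are printed on the strand of the gene, with AGGTCA or its reverse complement in capitals. Acsm3 lies on the plus strand (chr1:183564402-183564651) and Cyp2c22 on the minus strand (chr1:248980768-248981017) of that assembly.
Acsm3: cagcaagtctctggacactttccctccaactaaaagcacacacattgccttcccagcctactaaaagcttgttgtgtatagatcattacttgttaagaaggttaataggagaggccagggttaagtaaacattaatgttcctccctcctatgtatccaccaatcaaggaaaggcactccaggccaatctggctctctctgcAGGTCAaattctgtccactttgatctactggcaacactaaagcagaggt
Cyp2c22: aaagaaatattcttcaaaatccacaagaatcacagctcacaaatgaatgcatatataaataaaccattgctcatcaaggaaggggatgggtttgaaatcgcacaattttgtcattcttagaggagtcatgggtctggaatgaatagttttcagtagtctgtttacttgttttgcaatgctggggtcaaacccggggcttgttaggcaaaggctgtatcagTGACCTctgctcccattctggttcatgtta
Each stretch held a single AGGTCA, at bases -49 to -44 in Acsm3 and, on the opposite strand, at bases -30 to -25 in Cyp2c22. The same letters on either strand occurred in 14.1% of the 33469 promoters of the table. The paired form DR1, a direct repeat of AGGTCA with any single base between the copies, was found in 0.0508% of promoters and in neither of these. Acsm3 also held CCAAT at bases -92 to -88 and -68 to -64 (34.0% of promoters held it on either strand), and Cyp2c22 held TATAAA at bases -197 to -192 (12.9%). These matches describe the letters alone.

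All 3 enzymes in the libraries labelled PFC had higher mean levels on whole egg, close to 3-fold for each. Cyp4a1 had 131, 199, 451, 397, 485 and 314 CPM in egg animals 2, 4, 5, 8, 10 and 12, against 84.7, 56.2, 197, 104, 145 and 58.8 CPM in casein animals 1, 3, 6, 7, 9 and 11. The diets overlapped: egg animal 2 lay below casein animals 6 and 9, and the other 5 egg rats lay above every casein rat. Cyp4a1 averaged 329 ± 142 CPM on egg and 108 ± 54.8 CPM on casein (SD, n = 6 each), a 3.05-fold difference in edgeR's fit (log2 fold change 1.61, SE 0.354).

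Cyp2c22 had 2166, 1558, 2627, 1428, 1380 and 158 CPM in egg animals 2, 4, 5, 8, 10 and 12, against 482, 762, 589, 472, 578 and 319 CPM in casein animals 1, 3, 6, 7, 9 and 11. Of the egg rats, 5 lay above every casein rat, and animal 12 lay below every one of them. The means were 1553 ± 839 CPM on egg and 534 ± 148 CPM on casein (SD, n = 6 each), with a log2 fold change of 1.54 (SE 0.423), and without animal 12 the log2 fold change was 1.78 (SE 0.213). Without animals 2, 10 and 12, all on egg and chosen after seeing the data, the log2 fold changes were 1.70 for Cyp4a1, 1.82 for Cyp2c22 and 1.79 for Acsm3. In its PFC-labelled library animal 12 also had the highest Aqp1 (101 CPM, median 30.3), Slc13a2, a dicarboxylate transporter of the kidney tubule (16.3 CPM, median 4.74), and Prelp, a proteoglycan of connective tissue (80.5 CPM, median 31.9). Ptprn and Ptgds, markers of neural and neuroendocrine cells, were also highest in it (19.7 and 7.71 CPM, medians 8.14 and 2.51). The other tubule markers, Slc12a3 and Slc34a2, lay just below their medians (4.93 and 4.01 CPM, medians 6.03 and 4.12), and Cps1 was near its lowest value (1290 CPM, lowest 1283). The part of these in the low Cyp2c22 value was not tested.

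Acsm3 was far less abundant, with 10.4, 18.7, 5.65, 24.5, 19.5 and 10.5 CPM in egg animals 2, 4, 5, 8, 10 and 12, against 1.4, 5.3, 7.65, 1.53, 7.16 and 4.25 CPM in casein animals 1, 3, 6, 7, 9 and 11. Egg animal 5 lay within the casein range and the other 5 egg rats above it. The means were 14.9 ± 7.13 CPM on egg and 4.55 ± 2.69 CPM on casein (SD, n = 6 each), with a log2 fold change of 1.68 (SE 0.423). These levels rested on 5 to 116 counts per library, against 235 to 1919 for Cyp4a1 and 514 to 11168 for Cyp2c22.

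**Figure D1:**
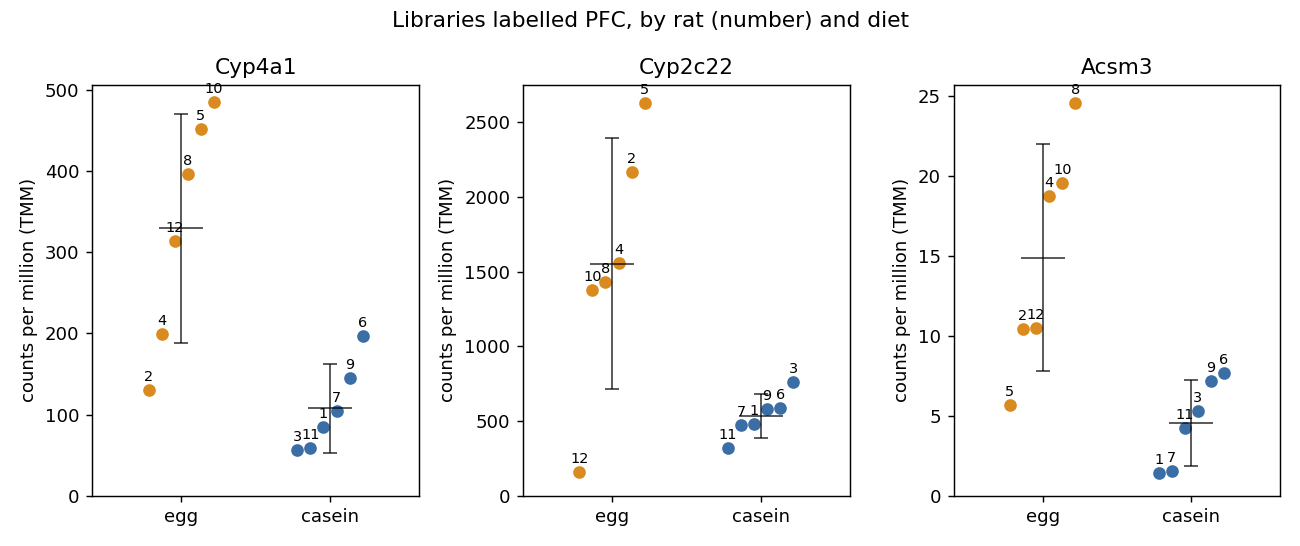
Levels of the 3 enzymes in the libraries labelled PFC, in TMM-scaled CPM on linear axes, with each point a rat named by its animal number and the black bars the mean and SD of 6 rats. In each panel 5 egg rats lie above every casein rat, and the egg rat that does not is animal 2 for Cyp4a1, animal 12 for Cyp2c22 and animal 5 for Acsm3.

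The rat that broke the pattern differed between the enzymes. Animal 2, lowest on egg for Cyp4a1, had the second highest Cyp2c22, and animal 5, lowest on egg for Acsm3, had the highest Cyp2c22 and the second highest Cyp4a1. QuantSeq makes 1 fragment near the 3′ end of a transcript, so a count does not grow with transcript length. Levels of different genes are set side by side on that ground, each still uncertain through reads shared with close relatives. Within a library, Cyp2c22 was 2.85- to 16.6-fold above Cyp4a1 in the other 5 egg rats, while in egg animal 12 the ratio was 0.504, and it was 2.99- to 13.6-fold above in the casein rats. Cyp4a1 was 10.6- to 80.0-fold above Acsm3 in egg rats and 10.6- to 68.2-fold in casein rats. By mean level Cyp2c22 stood at percentile 98.8 of the 8593 genes tested, Cyp4a1 at 95.2 and Acsm3 at 38.0.

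Over all genes, 8 of 8593 passed edgeR's quasi-likelihood test in the PFC-labelled table at a Benjamini-Hochberg (BH) adjusted p under 0.05 (0.0931%), 2 of them higher on egg (0.0233%) and 6 lower (0.0698%). None of the 3 enzymes was among the 8. DESeq2 called 38 of the same 8593 genes, and all 3 enzymes were among the 38. Since this contrast chose the enzymes, nothing is read from either result.

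Markers of other cell types were present in these libraries at levels that varied between rats. The summed level of the 4 kidney tubule markers that could be found of 7 listed was 43.0 to 126 CPM on egg and 26.1 to 43.4 CPM on casein. Aqp1 was its largest part, with means of 46.7 CPM on egg and 20.5 CPM on casein. Slc12a3 (13.1 and 4.62 CPM) and Slc13a2 (8.72 and 2.53 CPM) were also higher on egg, while Slc34a2 was lower (3.55 and 6.10 CPM). These markers could be looked up only because the study had named them as changed, so the sums are not independent of diet. Cps1 averaged 1999 CPM on egg and 1554 CPM on casein. None of the 4 tubule markers had a median of 0. The part of such cells in the enzyme levels was not tested, and fewer cells of a type and less RNA per cell cannot be told apart in bulk libraries.

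Within a diet the 3 enzymes showed no relation across rats that passed a test. Of 6 relations in the libraries labelled PFC (log2 CPM, n = 6 rats each, two-sided exact permutation tests over pairings, BH adjusted over the 6), Pearson's r was between -0.10 and 0.36 and Spearman's rho between -0.60 and 0.60. The smallest adjusted p was 0.994 for r and 0.711 for rho, by the same exact permutation tests. For Cyp4a1 and Cyp2c22, r was -0.10 on egg (exact p = 0.933) and 0.24 on casein (exact p = 0.667), with rho of -0.20 (exact p = 0.714) and 0.09 (exact p = 0.919). For Cyp4a1 and Acsm3, r was 0.04 on egg (exact p = 0.864) and 0.33 on casein (exact p = 0.489), with rho of 0.26 (exact p = 0.658) and 0.49 (exact p = 0.356). For Cyp2c22 and Acsm3, r was -0.02 on egg (exact p = 0.994) and 0.36 on casein (exact p = 0.486), with rho of -0.60 and 0.60 (exact p = 0.242 for each). Leaving out the 2 rats farthest from the median of the first gene moved r to 0.89 and 0.94 for Cyp4a1 and Cyp2c22 on egg and casein, to 0.07 and 0.26 for Cyp4a1 and Acsm3, and to -0.95 and 0.99 for Cyp2c22 and Acsm3. With 4 rats left, these values rest on which rats are kept.

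Among the 67 other genes with a symbol, those whose deviations from the diet mean most resembled each enzyme over the 12 PFC-labelled libraries are named as a description. For Cyp2c22 they included Idi1, an isomerase of sterol synthesis (r = 0.92), and Gsta3, a glutathione transferase (r = 0.76). For Cyp4a1 they were Hmgcs1, which makes HMG-CoA (r = 0.78), Tpcn2, an endolysosomal channel (r = 0.68), and Sft2d2 (r = 0.53). For Acsm3 they were Sqle, the squalene epoxidase (r = 0.56), Hmgcs1 (r = 0.52) and Acot5, an acyl-CoA thioesterase (r = 0.47). The points share libraries and depth.

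Other genes of the same pathways had values on both sides of 0 in the libraries labelled PFC. These genes carry symbols only because the study named them from these libraries, so the counts below are not independent of the contrast. Of 40 genes listed for fatty acid oxidation and PPAR alpha targets, 2 besides Cyp4a1 could be found, and neither passed the test. Acot5 averaged 10.1 ± 3.23 CPM on egg and 21.0 ± 8.17 CPM on casein (log2 fold change -1.09, SE 0.277, edgeR adjusted p = 0.283). Of 22 genes listed with acyl-CoA synthetases, thioesterases and binding proteins, 5 besides Acsm3 were found and none passed. Their median log2 fold change was -1.09, the value of Acot5, which is in both lists, against 0.03 over all genes tested. They included Acss2, which makes acetyl-CoA, at 11.7 CPM on egg and 27.3 CPM on casein, and Echdc1, an enoyl-CoA hydratase-like enzyme that clears a side product of fatty acid synthesis, at 2.06 CPM on egg and 6.66 CPM on casein. Ivd, a dehydrogenase of leucine breakdown, stood at 739 CPM on egg and 389 CPM on casein.

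Of 32 P450 enzymes listed, the only other one found was Cyp51, the lanosterol demethylase, which fell to 20.5 ± 4.78 CPM on egg, against 86.5 ± 31.9 CPM on casein (log2 fold change -2.06, edgeR adjusted p = 0.000642). Of 7 genes found of 19 for fatty acid synthesis and desaturation, 1 fell, Fads1, the delta-5 desaturase (log2 fold change -2.61, edgeR adjusted p = 0.000642), and the median log2 fold change was -1.31. Scd, a stearoyl-CoA desaturase, was the 1 of the 7 with a value above 0, with 500.4 ± 190.3 CPM on egg and 146 ± 87.1 CPM on casein (log2 fold change 1.78, SE 0.439, edgeR adjusted p = 0.266). Of 7 found of 8 drug and epoxide metabolising enzymes, 1 rose, Inmt, an amine methyltransferase (log2 fold change 2.36, edgeR adjusted p = 0.0155), and the median was 0.55. In that list Ephx1, the microsomal epoxide hydrolase, averaged 1071 ± 289 CPM on egg and 563 ± 125 CPM on casein (log2 fold change 0.93, edgeR adjusted p = 0.266). In VAT, 2 genes of the last list were higher and 1 lower of 7 tested (0.0595% of all genes passed there, and the list is of genes the study had named as changed), and no gene of the other lists passed, while in liver and kidney no listed gene passed.

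The libraries labelled VAT came from the same rats and held all 3 enzymes above the count filter, and here no diet difference passed the test. None of the 3 was called in a table where 0.0595% of 8403 genes were, none had an unadjusted p under 0.05, and DESeq2 also called none. Cyp4a1 had 4.09, 49.7, 30.1, 57.3, 18.1 and 21.8 CPM in egg animals 2, 4, 5, 8, 10 and 12, against 23.3, 35.4, 62.6, 31.2, 69.9 and 37.0 CPM in casein animals 1, 3, 6, 7, 9 and 11. The diets overlapped widely, with egg animals 2, 10 and 12 below every casein rat. Its log2 fold change was -0.52 (95% interval -1.39 to 0.35, edgeR adjusted p = 0.993), and the point estimate was 0.698-fold.

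Acsm3 in these libraries had 17.3, 99.4, 19.3, 36.2, 41.0 and 93.8 CPM in egg animals 2, 4, 5, 8, 10 and 12, against 8.97, 35.4, 43.0, 47.2, 167 and 34.3 CPM in casein animals 1, 3, 6, 7, 9 and 11. Every egg value lay within the casein range. The log2 fold change was -0.12 (95% interval -1.26 to 1.02, edgeR adjusted p = 0.994), and without casein animal 9 it was 0.59 (edgeR adjusted p = 0.991).

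Cyp2c22 was scarce there, with 4.99, 3.04, 11.7, 1.66, 4.79 and 8.22 CPM in egg animals 2, 4, 5, 8, 10 and 12, against 30.1, 5.31, 6.03, 1.93, 2.56 and 2.49 CPM in casein animals 1, 3, 6, 7, 9 and 11. Casein animal 1 stood far above the others. The log2 fold change was -0.46 (95% interval -1.81 to 0.89, edgeR adjusted p = 0.993). The same library of animal 1 held 40 genes restricted to the PFC-labelled table at 2.63% of the level in that table, the highest share of the 12 rats (median 0.631%), and Cyp2c22 stood at 4.45% of its own PFC-labelled median. Casein animal 9 had nearly as high a share of these genes, 2.12%, but Cyp2c22 there stood at 0.379% of that median. In egg animal 5 the share was 2.07% and Cyp2c22 stood at 1.73%. Of the 5 rats with most Cyp2c22 under this label, 4 were among the 5 with the highest shares. The part of such reads in the Cyp2c22 value was not tested.

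Only Cyp2c22 passed, among the libraries labelled liver, the filter of at least 10 counts in at least 6 libraries. It had 6.46, 56.6, 121, 4.78, 37.0 and 4.63 CPM in egg animals 2, 4, 5, 8, 10 and 12, against 4.24, 73.9, 21.2, 2.71, 32.9 and 3.38 CPM in casein animals 1, 3, 6, 7, 9 and 11. Rats of both diets were high and low alike. The log2 fold change was 0.76 (95% interval -1.57 to 3.08, edgeR adjusted p = 0.969), and it was -0.070 without egg animal 5 and 0.03 without animals 3, 4 and 5. No gene of this table passed edgeR's test (0% of 8724, with 362 at an unadjusted p under 0.05), and DESeq2 called 1.

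The 5 liver-labelled libraries with most Cyp2c22, those of animals 5, 3, 4, 10 and 9, were also the 5 with most of the genes restricted to the PFC-labelled table. In animals 5, 3, 4, 10 and 9 those genes stood at 22.2, 8.33, 9.39, 2.15 and 3.25% of the level in their own table, and Cyp2c22 at 18.0, 10.9, 8.38, 5.48 and 4.87% of its PFC-labelled median. Cyp4a1 was highest in the same 5 rats, with 35.4, 28.4, 8.65, 18.2 and 11.2 CPM in animals 5, 3, 4, 10 and 9, while the other 7 rats had 0.271 to 3.37 CPM. The part of reads from the other table in these levels was not tested.

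**Figure D2:**
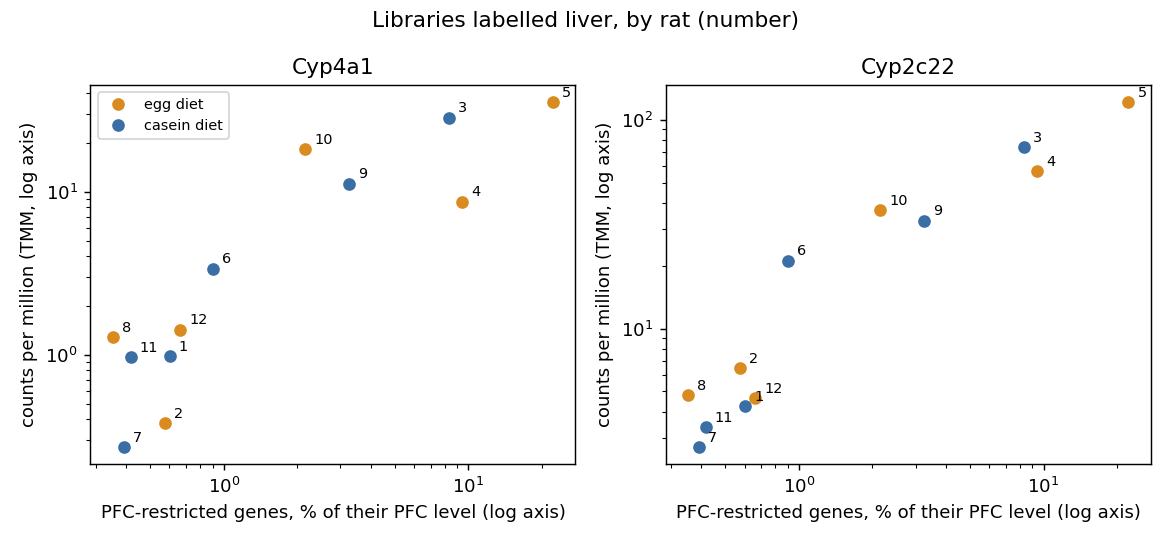
Cyp4a1 and Cyp2c22 in the 12 libraries labelled liver, in TMM-scaled CPM, against the summed level of 32 genes restricted to the PFC-labelled table as a percent of their level there, with both axes logarithmic and each point a rat named by its animal number. Animals 3, 4, 5, 9 and 10, from both diets, hold the highest values on both axes in both panels.

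Under the kidney label Cyp2c22 had 4.36, 4.49, 1.45, 2.78, 5.87 and 3.31 CPM in egg animals 2, 4, 5, 8, 10 and 12, against 3.95, 3.32, 4.89, 8.05, 2.44 and 6.28 CPM in casein animals 1, 3, 6, 7, 9 and 11. The diets overlapped, and the log2 fold change was -0.30 (95% interval -1.05 to 0.45, edgeR adjusted p = 0.9999). No gene passed edgeR's test in this table (0% of 9610, with 127 at an unadjusted p under 0.05), and DESeq2 also called 0. Cyp4a1 had 1 to 8 counts per library there and was not tested.

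Acsm3 was near the limit of detection in both of these tables and was tested in neither. Under the liver label it had 13 counts over 4 of 6 egg rats and 1 count in 1 of 6 casein rats. Of the 13, 5 were in animal 5, 4 in animal 12 and 3 in animal 4. The liver-labelled library of animal 12 held 47 genes restricted to the VAT-labelled table, where Acsm3 was highest, at 16.1% of their level there (median of the 12 rats 0.514%), and those of animals 5 and 4 held the genes restricted to the PFC-labelled table at the shares given above. The part of such reads in these counts was not tested. Under the kidney label it had 10 counts over 4 of 6 egg rats and 1 count in 1 of 6 casein rats. A library at 0 counts allows up to 3, so single rats cannot be told apart at this depth.

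**Figure D3:**
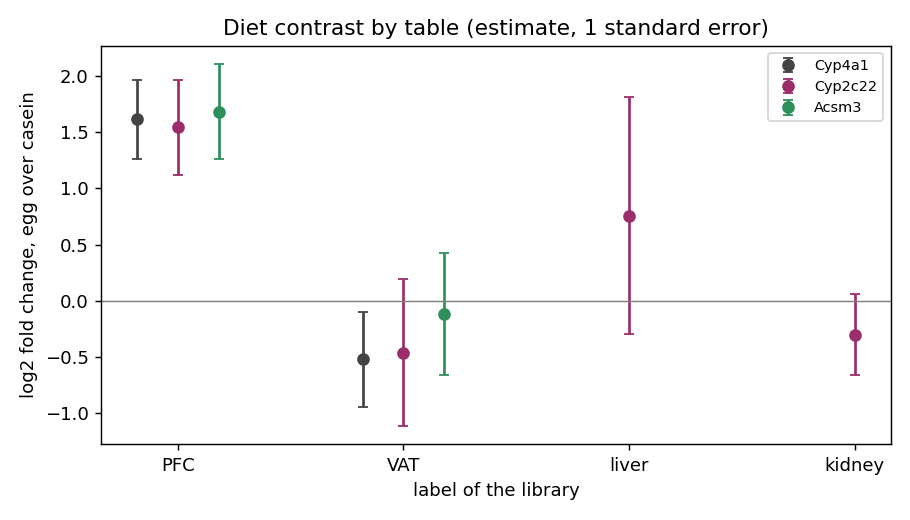
Log2 fold change of egg over casein for each enzyme in each table, from edgeR, with bars of 1 standard error and a grey line at 0. The 3 values in the libraries labelled PFC lie between 1.54 and 1.68. Those in the other tables lie between -0.52 and 0.76, where all 3 enzymes passed the count filter in VAT and only Cyp2c22 in liver and kidney.

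The levels of the enzymes across the 4 tables set them apart from each other. Cyp4a1 was highest in the libraries labelled PFC, with a median of 171 CPM (range 56.2 to 485 over 12 rats), followed by VAT with 33.3 CPM (4.09 to 69.9), liver with 2.4 CPM (0.271 to 35.4) and kidney with 0.632 CPM (0.253 to 1.8). Every rat had more Cyp4a1 in its PFC-labelled library than in any of its others. In edgeR's fit over all 48 libraries the log2 difference for VAT over PFC was -2.85 (SE 0.493, adjusted p = 2.94e-06). Cyp4a1 failed the count filter in liver and in kidney alone, with 34 counts over the 12 kidney-labelled libraries and 276 over the liver-labelled ones. It entered the joint fit through the tables where it was high. The log2 difference of -2.42 for liver over VAT and the step to kidney are therefore given as a description with no test. Many genes differ between tables, and 26.4% of the 11939 genes tested were lower in VAT than in PFC and 28.1% lower in liver than in VAT. For all 3 enzymes, the PFC-labelled values that chose them enter each comparison with PFC. Those tests are therefore not independent of the choice. Without the liver-labelled libraries of animals 3, 4 and 5, chosen after seeing the data, liver over VAT was -3.62, also a description.

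Cyp2c22 was far more abundant under the PFC label than elsewhere, with a median of 675 CPM there (range 158 to 2627), 13.8 CPM in liver (2.71 to 121), 4.89 CPM in VAT (1.66 to 30.1) and 4.15 CPM in kidney (1.45 to 8.05). The range in the PFC-labelled libraries did not overlap that of any other table. The log2 difference was -5.79 for liver over PFC (SE 0.589, edgeR adjusted p = 8.47e-12; 29.4% of genes were lower), and -7.50 for VAT over PFC (SE 0.652, edgeR adjusted p = 9.09e-14), which became -8.17 without animal 1. Liver over VAT was 1.71 (SE 0.543, edgeR adjusted p = 0.00659; 28.8% of genes were higher) and became 2.45 without animal 1. Without the liver-labelled libraries of animals 3, 4 and 5 it was 0.54 and no longer passed (edgeR adjusted p = 0.379), and liver over PFC was -7.00. Kidney and VAT were not told apart (log2 difference -1.08, 95% interval -2.24 to 0.08, edgeR adjusted p = 0.094; 35.3% of genes were lower in kidney).

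Acsm3 had another order, led by a median of 38.6 CPM under the VAT label (range 8.97 to 167), with 7.4 CPM under the PFC label (1.4 to 24.5). All 12 rats had more Acsm3 in VAT than in PFC, with a log2 difference of 2.25 (SE 0.375, edgeR adjusted p = 8.91e-07; 30.1% of genes were higher in VAT). The libraries labelled liver and kidney had medians of 0, with highest values of 1.57 and 1.06 CPM, and with 14 and 11 counts in all they could not be compared at this depth. Liver over PFC was -5.02 and kidney over PFC -5.71 on the log2 scale (29.4 and 36.7% of genes were lower), values that rest on few counts, and liver over PFC was -5.62 without the same 3 liver-labelled libraries and -5.28 without that of animal 12. Of the other table's genes, 66 restricted to the VAT label stood, in the libraries labelled PFC, at 0.133 to 0.618% of their level there, and Acsm3 stood at a median of 19.2% of its own. Whether such reads had a part in the Acsm3 level was not tested.

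**Figure D4:**
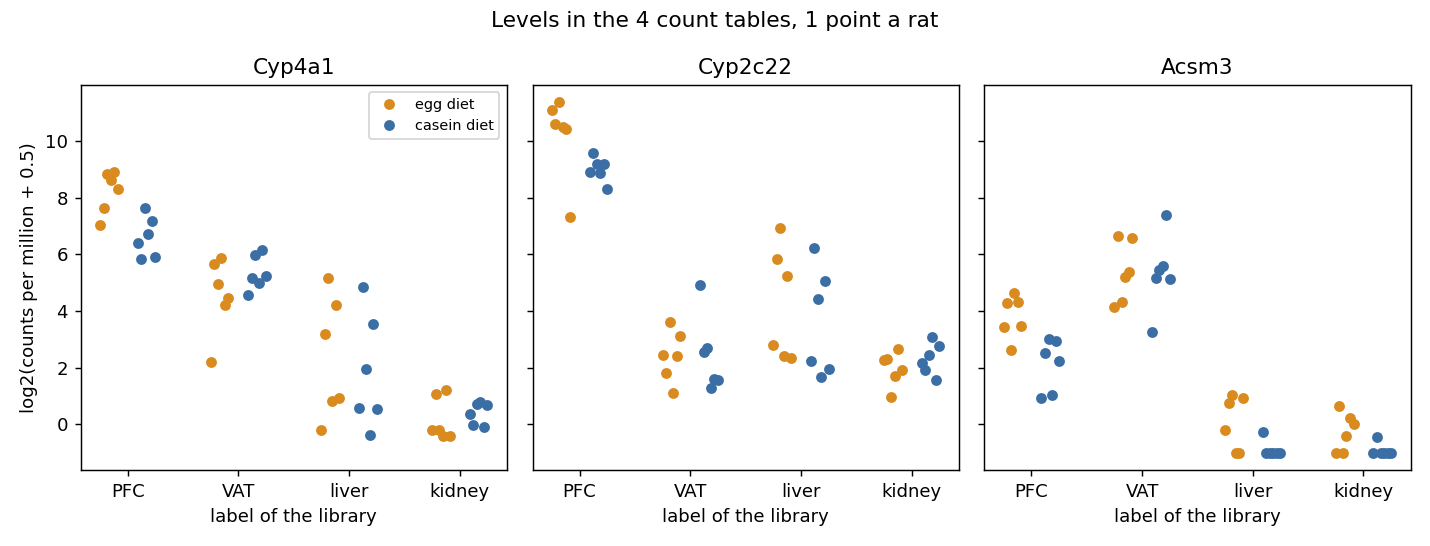
Levels of the 3 enzymes in the 4 tables as log2 of CPM plus 0.5, with each point a rat, egg to the left of casein within each table. Cyp4a1 and Cyp2c22 are highest in the libraries labelled PFC, with medians of 171 and 675 CPM, and Acsm3 in those labelled VAT, with a median of 38.6 CPM.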

How the data were processed

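Large RNA of 12 rats was sequenced as QuantSeq 3′ libraries; the authors used BBDUK for trimming and STAR for alignment to Ensembl's rat assembly, and deposited raw counts per gene, 1 table for each labelled tissue. The submitters' processing notes name FastQC and DESeq. Columns were tied to samples by table and animal number, and 0 columns were left unmatched. Gene symbols and primer letters came from the study's own lists. No values of the authors' comparison tables, microRNA tables or other files were used.

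Genes reaching 10 counts in 6 or more of 12 libraries were scaled by TMM and tested with edgeR 4.0.16 (quasi-likelihood, robust) in R 4.3.3, with BH adjustment at 0.05, and the 4 tables were also fitted together (48 libraries, table and diet). CPM use TMM-scaled library sizes, and log2 CPM a pseudocount of 0.5. Alternatives were DESeq2 1.42.0, edgeR with the size factors of DESeq2, looser and stricter count filters, a block for each rat, and leaving out rats. The scripts were tested on simulated data. By the labels an animal number marks 1 rat in every table, and deviations of such libraries from the diet means had median correlations of -0.0240 to 0.0921 between tables. No library was a copy of another.

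The named genes are the 3 enzymes, up to 4 genes of each pathway list by size of change, and the 3 genes most alike to each enzyme, and values of some genes that this rule or the marker lists name are not reported here. Enzymes and lists were chosen with earlier results of these data known. Symbols come from the study's own list of changed genes, since the reference table of assembly GRCr8 holds none of the IDs. Total counts of 941980 to 7105361 limit what can be seen of scarce genes, and intervals from the fits cover the spread between rats.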

Additional observations from a re-analysis of the deposited data

Results flagged for a closer look

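A single rat stood far from the other 5 of its diet in 4 of 24 groups looked at. The rule flags about 1 in 20 groups of normally spread values, which CPM near 0 are not, so no excess is read from this number. Cyp2c22 in the libraries labelled VAT was 30.1 CPM in casein animal 1, and Acsm3 there was 167 CPM in casein animal 9. In the other 2 groups the value was a single count where the other 5 casein rats had none, which the rule always flags. Acsm3 was 0.327 CPM in animal 1 in the libraries labelled liver and 0.237 CPM in animal 3 in those labelled kidney.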

How the results depend on the processing

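The diet contrasts of the enzymes under the VAT, liver and kidney labels passed under no alternative run that tested them. Cyp2c22 in VAT reached 10 counts in just 6 libraries, so it failed the filter when any of these was left out. Casein animal 1, its highest rat, was among these, so the direction without that rat is not known. Every difference in level between tables that passed also passed under its alternatives, with 1 exception. Cyp2c22 in liver over VAT was 0.54 (edgeR adjusted p = 0.379) without the liver-labelled libraries of animals 3, 4 and 5, which were chosen after seeing the data, as was leaving out that of animal 12, which changed no call. The direction turned for Acsm3 in VAT without animals 4 and 9 (0.33, also chosen then) and without animal 2 (0.06), 5 (0.05) or 9 (0.59), with a range of -0.41 to 0.59 over single rats left out. It turned for Cyp2c22 in liver without animal 5 (-0.070, range -0.070 to 1.62). The correlation of Cyp4a1 and Cyp2c22 on egg turned to 0.89 without the 2 rats farthest from the median. In the libraries labelled PFC the log2 fold changes with single rats left out were 1.46 to 1.87 for Cyp4a1, 1.33 to 1.78 for Cyp2c22 and 1.48 to 1.89 for Acsm3. The cause of these shifts was not tested.

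The number of genes called in PFC was 38 by DESeq2 and 17 with no count filter. It was 18 without animals 2, 10 and 12, also chosen after seeing the data. With single rats left out it was 5 to 26 (5 without animal 9 or 11 and 26 without animal 12). In VAT it was 21 by DESeq2, 10 with no filter, 3 with at least 10 counts in all 12 libraries and 3 to 10 with single rats left out (3 without animal 1 or 6 and 10 without animal 9), and in liver 1 by DESeq2. With the rat as a block in the comparison of tables, Cyp4a1 was -2.88, Cyp2c22 -7.52 and Acsm3 2.07 for VAT over PFC, and the block changed no call. Within a table each rat has 1 diet, so diets cannot be paired. Cyp4a1 and Acsm3 failed the count filter in liver and kidney, and so have no values there to vary. The stricter filter also left out Acsm3 in PFC, Cyp4a1 in VAT and Cyp2c22 in VAT, liver and kidney.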

Other observations

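In the libraries labelled kidney, the 5 rats with most Cyp4a1 and the 5 with most Cyp2c22 were each the same 5 that held most of the 100 genes restricted to the PFC-labelled table, which stood at 0.332 to 1.04% of their level there over the 12 rats. Cyp4a1 rested on 1 to 8 counts per library. For comparison, Cyp4a1 stood at a median of 0.369% and Cyp2c22 at 0.615% of their PFC-labelled medians.

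The primer pair listed for quantitative PCR of Cyp2c22 has the same letters as the pair listed for Fads1, shown here so that both can be compared. The forward primer is a dinucleotide repeat.
Forward primer: agagagagagagagagagagaga
Reverse primer: gagaccctctgcatctcaatac
The quantitative PCR itself was not analysed here.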
